A study of Mus musculus with 9 samples.

Results

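Motile cilia are beating hairs that clear mucus over the respiratory epithelium of the nose. The genes described here are those that encode the dynein arms, radial spokes, central pair and inner microtubule proteins of the ciliary axoneme, together with their master regulator Foxj1. They were taken from the count table by symbol, as every row named Dnah, Dnai, Dnal, Dnali, Dnaaf, Rsph, Tekt or Spag followed by a number, plus Foxj1. Of 43 such rows, 41 had at least 10 reads summed over all libraries, among 20213 genes that passed the same minimum. The other 2, Spag11a and Spag11b, had 0 reads. The rule uses names and no difference between genotypes. Spag4, Spag5, Spag7 and Spag9 match by name only and are not known as axonemal proteins.

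RNA-seq was performed on polyA-selected RNA of the whole main olfactory epithelium (MOE) of 9 mice, labelled as C57BL/6 at P14. The mice were littermates of 1 line carrying a CRISPR-Cas9 deletion of TAAR enhancer 1, a noncoding element of the cluster of trace amine-associated receptor (Taar) genes, and comprised 3 wild-type (WT), 3 heterozygous (het) and 3 homozygous (homo) animals, numbered 1 to 3 within each genotype. The reporting summary of the study gives a mixed strain background and older mice for this line, which was not resolved. The question for the motile cilia genes was whether their levels followed the genotype or varied between mice irrespective of it.

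The libraries held between 24583906 and 32631951 reads in genes, so that 3 reads correspond to 0.0916 to 0.122 CPM (a read count divided by library size). Without molecular identifiers, this limit covers counting error only. The summed level of Taar2 to Taar5, receptor genes on one side of the deleted enhancer, was 9.11 to 10.3 CPM in WT, 5.34 to 6.54 CPM in het and 0.0387 to 0.106 CPM in homo libraries, which matches the labels. The libraries het 1, homo 2 and homo 3 stood apart in their reads from vomeronasal receptors, expressed in another sensory organ nearby, which summed to 64.3 CPM in het 1, 113 CPM in homo 2 and 65.4 CPM in homo 3, against at most 17.1 CPM in the other 6. Olfactory sensory neuron genes, the defining genes of the MOE, summed to between 8281 and 9220 CPM, and every library held the ciliated cell markers described further on.

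The axoneme is a ring of microtubule doublets around a central pair of microtubules. Outer and inner dynein arms, each built on heavy chains that split ATP, slide the doublets against each other, and radial spokes carry signals from the central pair to the arms. In multiciliated cells the genes of these parts are switched on together by Foxj1, a forkhead transcription factor, and by RFX factors, which bind a palindromic sequence called the X-box. Olfactory sensory neurons also carry cilia, which are long and immotile and hold no dynein arms.

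The promoters of 36 of the 41 genes were found in RefSeq (GRCm38.p6), and the 250 bases before each start were searched on both strands. An X-box was found in 8 of 36 (22.2%), against 3.12% of 27025 genes with a promoter. These were Dnaaf2, Dnah2, Dnah6, Dnah7a, Dnah7b, Spag16, Tekt2 and Tekt4. Dnah7a and Dnah7b are near-identical genes with the same X-box, and were counted separately. The spacing and letters allowed for the X-box were set after the promoter of Dnah6, which is itself counted, had been read. A single arm of the X-box, GTTGCC, searched first, was found in 8 of 36 (22.2%) against 11.8% of all. The forkhead core TGTTTA was found in 10 of 36 (27.8%) against 13.5% of all, and no forkhead match overlapped an X-box in the sequences shown.

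Of the promoters shown, those of Dnah5, Dnah6, Dnah9 and Spag16 belong to genes whose levels differed widely between mice, and that of Dnah11 belongs to a dynein heavy chain that was steady. Each is a stretch of 120 bases upstream of the start, on the strand of the gene, with an X-box or forkhead core in capitals. They lie at chr15:28203632-28203751 (plus strand) for Dnah5, chr6:73221652-73221771 (minus) for Dnah6, chr11:66168584-66168703 (minus) for Dnah9, chr1:69826850-69826969 (plus) for Spag16 and chr12:118199044-118199163 (minus) for Dnah11, outside annotated exons.
Dnah5: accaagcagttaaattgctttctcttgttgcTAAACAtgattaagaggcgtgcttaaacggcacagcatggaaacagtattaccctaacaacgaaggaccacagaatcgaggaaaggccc
Dnah6: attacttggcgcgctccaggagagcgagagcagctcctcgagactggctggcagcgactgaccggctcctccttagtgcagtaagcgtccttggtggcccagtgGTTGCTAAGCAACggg
Dnah9: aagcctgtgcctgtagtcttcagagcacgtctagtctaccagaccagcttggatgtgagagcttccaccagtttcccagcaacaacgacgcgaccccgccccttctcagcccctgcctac
Spag16: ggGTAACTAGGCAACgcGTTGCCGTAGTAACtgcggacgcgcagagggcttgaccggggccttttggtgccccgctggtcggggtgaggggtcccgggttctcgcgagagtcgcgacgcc
Dnah11: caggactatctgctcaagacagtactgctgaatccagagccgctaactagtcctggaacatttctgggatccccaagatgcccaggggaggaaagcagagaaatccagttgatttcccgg

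The promoter of Dnah6 carries an X-box of 13 bases near its start, and that of Spag16 carries a pair of them separated by 2 bases. In Dnah5 the capitals mark the reverse complement of the forkhead core. No match was found in the stretches of Dnah9 and Dnah11, although the forkhead core was found farther upstream in Dnah11. A match describes these letters and is not evidence of binding.

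No motile cilia gene differed between genotypes once p-values were adjusted (Benjamini-Hochberg, threshold 0.05) in edgeR's quasi-likelihood test over all 20213 genes. In the same fit 0.0495% of all genes were called between homo and WT mice, 0.00495% between het and WT, 0.114% between homo and het, and 0.0643% for any difference among the 3 genotypes. DESeq2 also called 0 of the 41 in each comparison. Its default filter left some, such as Dnah1 in homo against WT mice, without an adjusted p-value. With that filter off it again called 0 of the 41. At an unadjusted p-value under 0.05, 6 of 41 were lower in homo than in WT mice (4.71% of all genes), namely the dynein heavy chains Dnah1, Dnah2, Dnah5, Dnah6 and Dnah9 and the central pair gene Spag16, and 1 of 41, Rsph9, was higher (4.55% of all). Between het and WT mice, 1 was lower (Dnah2; 1.49% of all) and 0 were higher (1.75% of all). Between homo and het mice, 3 were lower (Dnah5, Dnah6 and Dnah9; 6.2% of all) and 3 were higher (Dnal4, Rsph9 and Spag7; 4.22% of all).

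The 3 homo libraries lay below all 3 WT libraries in 8 of the 41 genes (7.95% of all genes), which were Dnah1, Dnah2, Dnah5, Dnah6, Dnah7b, Dnah9, Spag1 and Spag16. They lay above all WT libraries in 1 gene, Dnal4 (7.46% of all). The median log2 fold change of homo over WT mice was -0.072 over the 41 genes and -0.00057 over all genes tested, with 30 of the 41 below 0 and 11 above. For het over WT mice it was -0.041 against 0.0033 over all, and for homo over het mice -0.049 against -0.0017 over all. In whole tissue, fewer ciliated cells and less RNA per cell cannot be told apart.

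**Figure D1:**
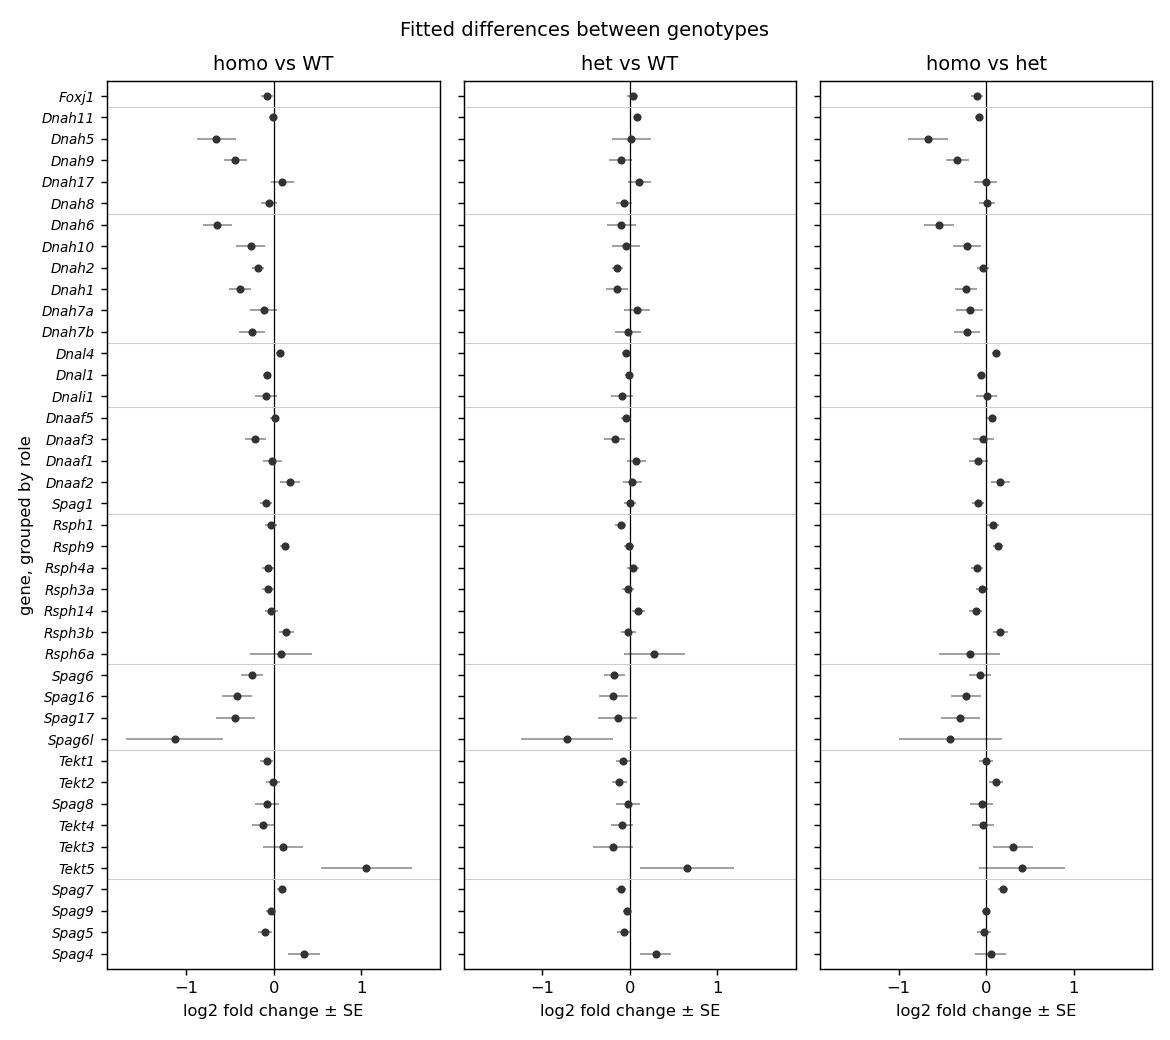
Log2 fold change from edgeR for each of the 41 genes (rows, grouped by role) in the 3 pairs of genotypes (panels). Bars are ± SE, derived from the F statistic of the test. In homo against WT mice the points run from -1.13 for Spag6l to 1.06 for Tekt5, both of very low level, and Dnah5 and Dnah6 stand lowest among the well-expressed genes; no gene passed the adjusted threshold.

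Foxj1, the transcription factor (ENSMUSG00000034227.7; chromosome 11, 116330704 to 116335399, GRCm38), had the highest level per length of the 41 genes, at 55.3 CPM per kilobase of exon. Its level was 143, 144 and 153 CPM in WT 1 to 3, 157, 161 and 130.5 CPM in het 1 to 3, and 138, 144 and 135 CPM in homo 1 to 3. The genotypes overlapped, and the highest and the lowest value were both in het mice. The log2 fold change was -0.076 (SE 0.066, edgeR adjusted p = 0.784) in homo over WT mice, 0.029 (SE 0.066, edgeR adjusted p = 1.00) in het over WT mice and -0.10 (SE 0.066, edgeR adjusted p = 0.620) in homo over het mice. The sign in het over WT mice turned when het 1 (-0.0096), het 2 (-0.026) or the 3 libraries with vomeronasal reads (-0.0093) were left out.

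Among outer arm heavy chains, Dnah5 (ENSMUSG00000022262.8; chromosome 15, 28203752 to 28472052), a core motor of the outer arm, had 102, 85.4 and 114 CPM in WT 1 to 3, 102, 143 and 60.0 CPM in het 1 to 3, and 53.0, 83.1 and 55.5 CPM in homo 1 to 3. Every homo library lay below every WT library, but het 3 lay as low as the homo mice and het 2 above all WT mice, so that the highest library was 2.69-fold the lowest. Dnah9 (ENSMUSG00000056752.16; chromosome 11, 65831282 to 66168551), the partner of Dnah5 in the distal part of the cilium, had 82.3, 71.3 and 90.5 CPM in WT mice, 78.5, 92.4 and 55.7 CPM in het mice and 56.2, 65.2 and 58.7 CPM in homo mice. The order was nearly that of Dnah5, with het 2 highest and het 3 lowest of all.

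Dnah11 (ENSMUSG00000018581.15; chromosome 12, 117877982 to 118199043), the outer arm heavy chain of the proximal part of the cilium, differed little between any mice. It had 132, 130.5 and 129.8 CPM in WT mice, 138, 144 and 133 CPM in het mice and 131, 125 and 136 CPM in homo mice, with het 3, homo 1 and homo 3 in the range of the WT and other het mice and homo 2 the lowest of 9. It was 9.21 CPM per kilobase, against 5.67 for Dnah5 and 4.53 for Dnah9. Dnah8 and Dnah17, heavy chains known from sperm, were at 12.8 and 8.91 CPM on average, and neither was lowest in het 3. Dnah17 was highest there, at 10.6 CPM.

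The log2 fold change of homo over WT mice was -0.65 (SE 0.23, edgeR adjusted p = 0.422) for Dnah5, a comparison chosen after its values were seen, and -0.44 (SE 0.13, edgeR adjusted p = 0.345) for Dnah9. Dnah5 was the lowest of the 41 genes in homo over het mice, at -0.67 (SE 0.23, edgeR adjusted p = 0.317). These calls rested on which libraries entered the fit. Without het 3, the homo over het values were -0.93 (edgeR adjusted p = 0.0194) for Dnah5 and -0.51 (edgeR adjusted p = 0.0223) for Dnah9. Without het 2, the highest library, the homo over het value of Dnah5 was -0.34 (edgeR adjusted p = 0.709). With only the 6 WT and homo libraries, the homo over WT value of Dnah9 was -0.44 (edgeR adjusted p = 0.0297).

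**Figure D2:**
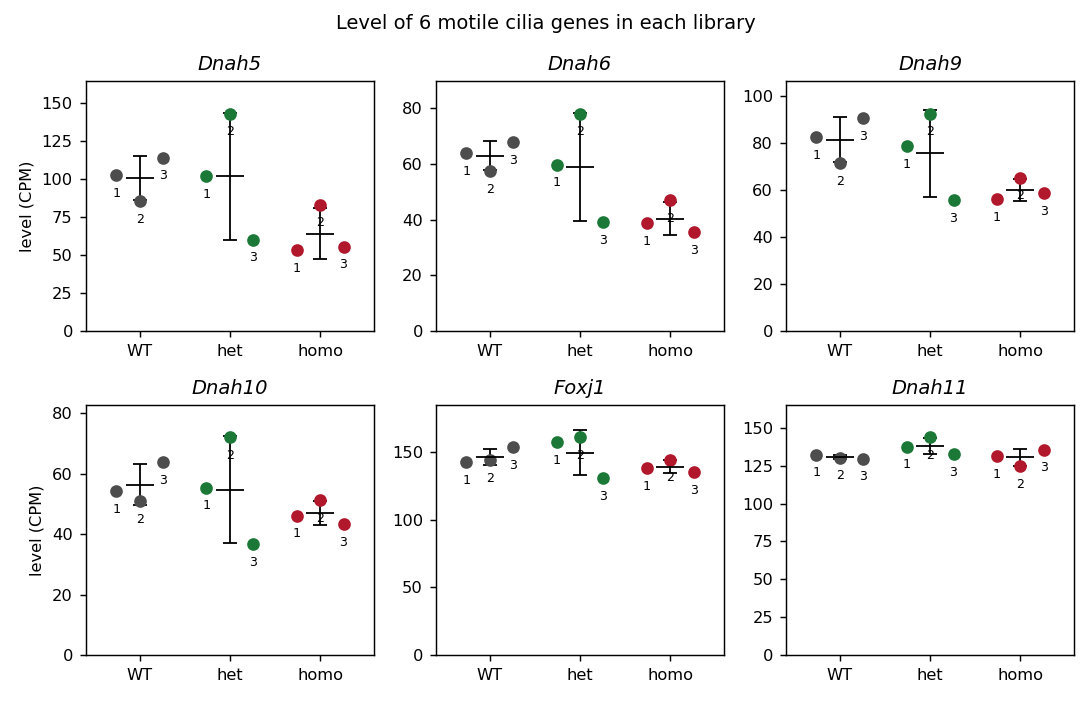
Level in CPM (linear axis from 0) of 6 genes in each library, with points numbered by mouse and bars for the mean ± SD of 3 mice. For Dnah5, Dnah6, Dnah9 and Dnah10 the het mice span from above the highest WT mouse (het 2) to the level of the homo mice or below (het 3), while Foxj1 spans 130.5 to 161 CPM and Dnah11 125 to 144 CPM.

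Of the inner arm heavy chains, Dnah6 (ENSMUSG00000052861.13; chromosome 6, 73017606 to 73221651) had the smallest p-value of the 41 genes in homo against WT mice. Its level was 63.9, 57.3 and 67.9 CPM in WT mice, 59.7, 78.1 and 39.1 CPM in het mice and 38.7, 47.0 and 35.5 CPM in homo mice. All homo mice lay below all WT mice, with het 3 again among them and het 2 the highest of 9. The log2 fold change was -0.64 (SE 0.17, edgeR adjusted p = 0.329) in homo over WT mice and -0.54 (SE 0.17, edgeR adjusted p = 0.290) in homo over het mice.

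For Dnah6 too the call depended on the libraries. The homo over WT value stayed at -0.64 with only the 6 WT and homo libraries (edgeR adjusted p = 0.00439) and without het 3 (edgeR adjusted p = 0.0219). The homo over het value without het 3 was -0.77 (edgeR adjusted p = 0.00714), and without het 2 it was -0.29 (edgeR adjusted p = 0.664). Without het 3, the test of any difference among genotypes called Dnah6 (edgeR adjusted p = 0.00939), Dnah9 (0.0308) and Dnah5 (0.0422). Leaving out the 3 libraries with vomeronasal reads gave -0.70 (edgeR adjusted p = 0.925) for Dnah6 in homo over WT mice, with 1 homo mouse left.

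Dnah10, an inner arm heavy chain, had 54.2, 50.9 and 63.9 CPM in WT mice, 55.3, 72.0 and 36.6 CPM in het mice and 46.1, 51.2 and 43.4 CPM in homo mice. The WT and homo mice overlapped, and het 3 was the lowest of all. Dnah1 was 29.2 ± 3.38 CPM in WT, 26.4 ± 5.81 CPM in het and 22.4 ± 2.08 CPM in homo mice (SD, n = 3 each), and its log2 fold change in homo over WT mice was -0.38 (SE 0.13, edgeR adjusted p = 0.413). Dnah2 was steadier, at 51.2 ± 3.58, 46.3 ± 3.15 and 45.2 ± 2.48 CPM in the same order, and had the smallest p-value of the 41 genes in het against WT mice (log2 fold change -0.14, SE 0.066, edgeR adjusted p = 1.00).

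Dnah7a and Dnah7b are near-identical inner arm heavy chains. Of the 100-base stretches of their transcripts, 80.0% are unique to Dnah7a and 76.5% to Dnah7b, so their reads may be split unevenly. Dnah7a had 7.55, 7.42 and 7.69 CPM in WT mice, 7.52, 10.1 and 6.39 CPM in het mice and 6.13, 7.88 and 6.96 CPM in homo mice. Dnah7b had 12.2, 10.2 and 12.2 CPM in WT mice, 12.8, 13.1 and 8.05 CPM in het mice and 9.76, 9.997 and 9.28 CPM in homo mice. For both genes het 2 was the highest library, and the 3 lowest were het 3, homo 1 and homo 3.

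The dynein light chains varied less. Dnal4, of the outer arm, had 59.5, 58.7 and 57.8 CPM in WT mice, 55.6, 56.3 and 59.2 CPM in het mice and 60.7, 60.1 and 64.2 CPM in homo mice, and the homo mice lay just above the WT mice. Dnal1, an outer arm light chain, had 101, 106 and 105 CPM in WT mice, 102, 108 and 99.7 CPM in het mice and 98.4, 102 and 96.7 CPM in homo mice. As for Dnah5, het 2 was highest and het 3, homo 1 and homo 3 were lowest, yet the highest library was only 1.12-fold the lowest. Dnali1, an inner arm light intermediate chain, ranged from 20.8 CPM in het 3 to 30.8 CPM in homo 2.

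The assembly factors prepare dynein arms in the cytoplasm before transport into the cilium. Dnaaf5 was among the steadiest genes, with 55.1, 50.2 and 50.5 CPM in WT mice, 48.7, 51.5 and 50.4 CPM in het mice and 52.9, 51.5 and 52.7 CPM in homo mice. Dnaaf3 had 20.4, 18.5 and 24.3 CPM in WT mice, 18.2, 21.4 and 16.4 CPM in het mice and 16.1, 20.6 and 17.9 CPM in homo mice, with het 3, homo 1 and homo 3 lowest. Dnaaf1, Dnaaf2 and Spag1, which also assist arm assembly, were at 14.5, 12.2 and 22.5 CPM on average, and Spag1 was lower in every homo mouse than in every WT mouse by a small margin (21.5 ± 0.569 against 22.9 ± 0.752 CPM; SD, n = 3 each). Of the exon bases of Dnaaf2, 38.7% are shared with other genes on the same strand, and 20.7% of those of Dnaaf1 with a gene on the opposite strand, so their levels are uncertain.

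**Figure D3:**
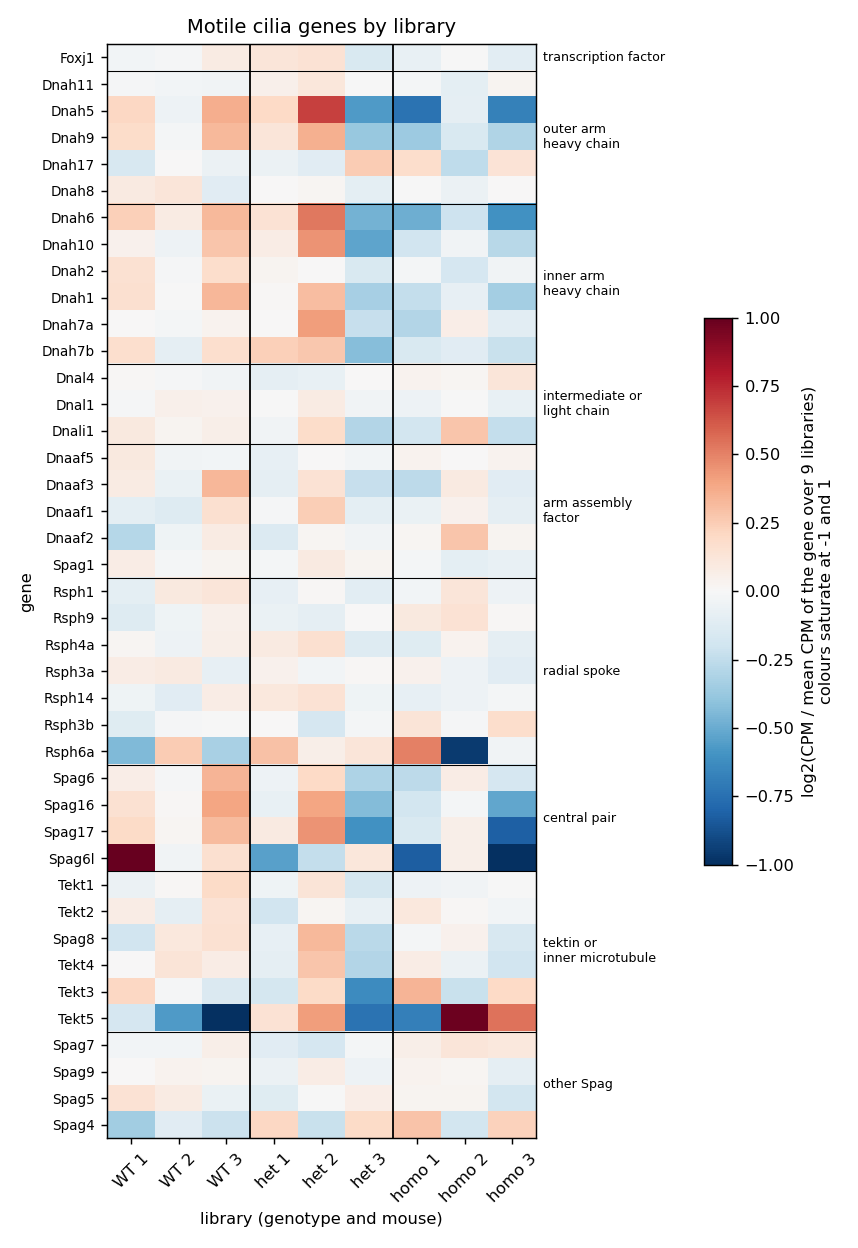
Log2 ratio of each gene's CPM to its own mean over the 9 libraries, for the 41 genes (rows, grouped by role) and the 9 libraries (columns); red is above and blue below the mean. Dnah5, Dnah6, Dnah9, Dnah10, Spag16 and Spag17 are red in het 2 and WT 3 and blue in het 3 and homo 3, while Dnah11, the light chains Dnal1 and Dnal4 and most radial spoke genes stay pale; Spag6l and Tekt5 are strongly coloured at levels below 1 CPM.

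Radial spoke genes form the spoke heads and stalks, and apart from Rsph4a they did not have het 3, homo 1 and homo 3 as their 3 lowest libraries. Rsph1, a spoke head gene, had 51.9, 59.6 and 60.3 CPM in WT mice, 52.4, 55.9 and 51.6 CPM in het mice and 54.6, 60.3 and 53.6 CPM in homo mice, and the genotypes overlapped throughout. Rsph9, another spoke head gene, had 56.0, 59.4 and 63.4 CPM in WT mice, 58.4, 57.7 and 61.3 CPM in het mice and 65.5, 67.7 and 61.8 CPM in homo mice. It was the one gene of the 41 that was higher in homo than in WT mice at an unadjusted p-value under 0.05 (adjusted p = 0.514, edgeR). Rsph4a, also of the spoke head, ranged from 45.5 CPM in het 3 to 55.7 CPM in het 2, and Rsph14 from 21.0 CPM in WT 2 to 25.1 CPM in het 2.

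Rsph3a and Rsph3b, near-identical spoke stalk genes, share most of their sequence, with only 39.4% and 35.2% of 100-base stretches unique to either gene. Rsph3a had 29.2, 29.4 and 26.2 CPM in WT mice, 28.6, 27.1 and 28.0 CPM in het mice and 28.5, 26.7 and 25.6 CPM in homo mice. Rsph3b had 15.9, 17.1 and 17.2 CPM in WT mice, 17.3, 15.4 and 17.0 CPM in het mice and 18.8, 17.2 and 19.5 CPM in homo mice. Neither was highest in het 2 or lowest in het 3. Rsph6a, a spoke gene known from sperm, had only 218 reads over the 9 libraries.

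Of the central pair genes, Spag6, Spag16 and Spag17 were lowest in the same 3 mice as Dnah5, which were het 3, homo 1 and homo 3. Spag16 had 23.6, 21.4 and 27.9 CPM in WT mice, 20.2, 28.0 and 15.7 CPM in het mice and 18.7, 20.9 and 14.8 CPM in homo mice, all homo mice lying below all WT mice. Spag6 had 21.2, 20.1 and 25.5 CPM in WT mice, 19.5, 23.2 and 16.3 CPM in het mice and 16.9, 21.3 and 18.0 CPM in homo mice, and WT and homo mice overlapped. For both, het 3 or homo 3 was the lowest library and het 2 or WT 3 the highest.

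Spag17, the largest of the central pair genes here, ranged from 5.96 CPM in homo 3 to 14.4 CPM in het 2, a ratio of 2.41, with het 3 at 6.90 CPM; 15.7% of its exon bases overlap genes on the opposite strand. Spag6l, the paralog of Spag6, had 76 reads in all and levels of 0.723, 0.305 and 0.348 CPM in WT mice, 0.214, 0.265 and 0.338 CPM in het mice and 0.176, 0.325 and 0.116 CPM in homo mice. Its log2 fold changes of -1.13 (SE 0.56, edgeR adjusted p = 0.565) in homo and -0.72 (SE 0.53, edgeR adjusted p = 1.00) in het over WT mice were the lowest of the 41 genes in those pairs. Both shrank without WT 1, to -0.66 and -0.25.

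The tektins are filament proteins of the doublet wall. Tekt1 had 39.8, 41.8 and 47.3 CPM in WT mice, 40.1, 45.4 and 36.7 CPM in het mice and 40.1, 40.4 and 41.2 CPM in homo mice, and het 3 was the lowest. Tekt2 had 22.7, 20.3 and 23.8 CPM in WT mice, 18.9, 21.9 and 20.6 CPM in het mice and 23.2, 21.8 and 21.2 CPM in homo mice, without a common order; 20.8% of its exon bases overlap a gene on the opposite strand. Tekt4 and Spag8, an inner microtubule protein, were both highest in het 2 (15.9 and 18.8 CPM) and lowest in het 3 (10.7 and 12.4 CPM).

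Tekt5, a tektin known from sperm, had 109 reads in all, and its log2 fold changes were the highest of the 41 genes, at 1.06 (SE 0.52, edgeR adjusted p = 0.565) in homo over WT, 0.65 (SE 0.54, edgeR adjusted p = 1.00) in het over WT and 0.41 (SE 0.49, edgeR adjusted p = 0.826) in homo over het mice. The homo over het value rested on homo 2, and all 3 values moved with single libraries. Leaving out 1 at a time, they ran from 0.69 to 1.42 in homo over WT, from 0.38 (without WT 3) to 0.93 in het over WT and from 0.037 (without homo 2) to 0.76 in homo over het mice. Without the 3 libraries with vomeronasal reads, the homo over WT value was -0.028 and the homo over het value -0.61, but homo 1, with 8 reads of Tekt5, was then the only homo library.

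Of the 4 genes without a known place in the axoneme, Spag9, a scaffold of kinase signalling, was the most abundant, at 299, 307 and 304 CPM in WT mice, 287, 315 and 289 CPM in het mice and 306, 302 and 281 CPM in homo mice. Spag7 had 43.0, 43.1 and 45.6 CPM in WT mice, 40.5, 39.0 and 43.2 CPM in het mice and 45.6, 47.6 and 47.1 CPM in homo mice, and all homo mice lay above all het mice. Its difference of 0.19 on the log2 scale (SE 0.055, edgeR adjusted p = 0.240) in homo over het mice had the smallest p-value of the 41 genes in that pair, and in het over WT mice it was -0.10 (SE 0.055, edgeR adjusted p = 1.00). The third gene by p-value in het against WT mice was Dnah11, at 0.077 on the log2 scale (SE 0.046, edgeR adjusted p = 1.00). Spag5, a protein of the mitotic spindle, was at 32.3 CPM on average and Spag4, a protein of the nuclear envelope, at 2.87 CPM.

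Summed over roles, the outer arm heavy chains were at 334 ± 22.5 CPM in WT, 337 ± 64.6 CPM in het and 276 ± 15.1 CPM in homo mice (SD, n = 3 each here and in the following sums). The inner arm heavy chains were at 219 ± 19.6, 206 ± 50.03 and 172 ± 10.7 CPM and the central pair genes at 58.9 ± 7.30, 52.1 ± 13.3 and 45.8 ± 7.36 CPM in the same order. Sums of the radial spoke genes were nearly level across genotypes, at 235 ± 8.77, 233 ± 6.04 and 237 ± 7.43 CPM, as were those of the light chains, at 189 ± 1.32, 185 ± 7.36 and 186 ± 6.12 CPM, and of the assembly factors, at 122 ± 5.58, 119 ± 6.67 and 119 ± 3.004 CPM. The tektin group summed to 96.7 ± 6.23, 91.6 ± 11.9 and 92.7 ± 2.18 CPM. The het mice had the largest SD of the 3 genotypes in each of these sums except that of the radial spoke genes.

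Over all 41 genes, the sum was 1785 ± 67.0 CPM in WT, 1746 ± 182 CPM in het and 1645 ± 62.3 CPM in homo mice. This is a difference of -7.83% in homo and -2.21% in het relative to WT mice and of -5.75% in homo relative to het mice. The het mice alone ran from 1567 CPM in het 3, the lowest library, to 1931 CPM in het 2, the highest. Weighted per kilobase of exon, which gives the long heavy chains less weight, the difference was -2.99% between homo and WT mice and -0.198% between homo and het mice. Without het 2 the het mice were -7.41% and without het 3 2.79% relative to WT mice, and the homo mice were -0.456% and -10.3% relative to het mice.

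The spread between mice was wider for the median motile cilia gene than for the median gene. The SD over the 9 libraries was 10.6% of the mean for the median motile cilia gene and 8.49% for the median gene tested. In edgeR the dispersion within genotypes lay above the trend for genes of like abundance in 25 of 41, against 31.4% of all genes. The SD over the mean was 33.7% for Dnah5, 27.4% for Dnah6, 25.9% for Spag17, 22.0% for Spag16, 20.2% for Dnah10 and 19.8% for Dnah9. At the other end it was 3.64% for Dnal1, 3.64% for Dnaaf5, 3.67% for Spag9 and 4.07% for Dnah11, while Foxj1 was at 7.07%.

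**Figure D4:**
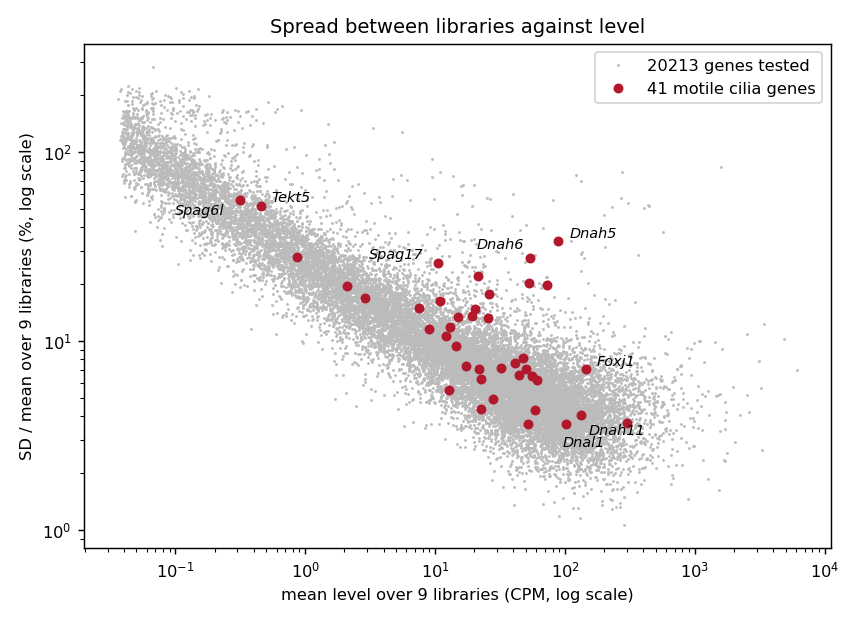
SD over the mean across the 9 libraries (in percent, log scale) against mean level (CPM, log scale) for 20213 genes tested (grey) and the 41 motile cilia genes (red). Dnah5 at 33.7%, Dnah6 at 27.4% and Spag17 at 25.9% lie above most genes of like level, and Dnah11 at 4.07% and Dnal1 at 3.64% lie among them; Spag6l and Tekt5 are high along with other genes of very low level.

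A part of the genes had an order of libraries that crossed the genotypes. Het 2 was the highest of the 9 libraries for 18 of the 41 genes (13.2% of all genes tested) and het 3 the lowest for 12 (9.99% of all). Het 2 was above het 3 in 31 of 41 genes (49.5% of all). The 3 lowest libraries were het 3, homo 1 and homo 3 for 15 of the 41 genes (3.63% of all), a set of libraries chosen after the values were seen. These 15 were Foxj1, Dnah1, Dnah5, Dnah6, Dnah7a, Dnah7b, Dnah9, Dnah10, Dnal1, Dnali1, Dnaaf3, Rsph4a, Spag6, Spag16 and Spag17. In 11 of them het 2 was also the highest (1.36% of all). The genes were read from the same libraries of whole tissue, so these counts describe the 9 mice and are not independent of each other.

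Other genes of motile cilia and ciliated cells were compared by lists. The 10 ciliated cell markers, which include Foxj1, summed to 477 ± 28.0 CPM in WT, 446 ± 68.7 CPM in het and 429 ± 40.8 CPM in homo mice (SD, n = 3 each), from 378 CPM in het 3 to 515 CPM in het 2. None was at 0. In 5 of the 10 (Foxj1, Ccdc153, Tmem212, Sntn and Cdhr3) the 3 lowest libraries were again het 3, homo 1 and homo 3, and in all 10 het 2 was above het 3. None was called in any pair of genotypes, and 2 of the 10 were lower in homo than in WT mice at an unadjusted p-value under 0.05 (4.71% of all genes).

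Sntn, a protein of the ciliary tip, had 17.5, 17.3 and 19.4 CPM in WT mice, 14.5, 22.0 and 9.40 CPM in het mice and 12.5, 19.8 and 11.9 CPM in homo mice. Cdhr3, a cadherin of ciliated cells, had 42.3, 35.8 and 46.9 CPM in WT mice, 32.2, 47.5 and 22.8 CPM in het mice and 25.4, 30.8 and 25.5 CPM in homo mice. The other markers with this order, Tmem212 and Ccdc153, ran from 15.2 to 31.6 CPM and from 39.1 to 68.4 CPM. The rest did not have this order. Of these, 1110017D15Rik ran from 24.9 to 27.5 CPM, Pifo from 30.8 to 37.8 CPM and Dynlrb2 from 26.6 to 33.8 CPM. Fam183b ran from 8.78 to 14.3 CPM and Tppp3 from 68.4 to 87.2 CPM, and Pifo and Tppp3 were highest in homo 2. The markers thus differed among themselves as the axoneme genes did, with some ranging over 2-fold and some steady.

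A list of 37 tested motile cilia genes named outside the symbols above, such as Cfap44 (267 CPM on average) and Spef2 (227 CPM), summed to 2001 ± 39.5 CPM in WT, 1966 ± 115 CPM in het and 1943 ± 8.64 CPM in homo mice (SD, n = 3 each). None of the 37 was called in any pair. In homo against WT mice 9 were lower (4.71% of all genes) and 1 was higher (4.55% of all) at an unadjusted p-value under 0.05. In 9 of the 37 the 3 lowest libraries were het 3, homo 1 and homo 3 (3.63% of all). The 11 tested regulators of multiciliation, led by Rfx3 (236 CPM) and E2f4 (58.6 CPM), summed to 415 ± 12.5, 410 ± 12.9 and 425 ± 18.1 CPM, and 1 of them, Myb, had this order.

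Genes of other cells of the nose also differed between these mice. The 9 tested respiratory secretory cell genes, led by the airway lining fluid protein Bpifa1 (3371 CPM on average) and by lactotransferrin, Ltf (567 CPM), summed to between 5171 and 5675 CPM in WT mice, to 5239, 5274 and 3981 CPM in het 1 to 3, and to 4449, 4562 and 4180 CPM in homo mice. Het 3 and the 3 homo mice had the lowest 4 sums, although het 2 did not have the highest. By gene, het 3, homo 1 and homo 3 were the 3 lowest libraries in 2 of 9, Muc5ac and Ltf (3.63% of all genes). Ltf ran from 266 CPM in het 3 to 847 CPM in het 2. Over the 9 genes, het 3 was the lowest library in 6 (9.99% of all). Of these genes 3 of 9 were lower in homo (4.71% of all genes) and 5 of 9 in het (1.49% of all) than in WT mice at an unadjusted p-value under 0.05, with none called. Scgb1a1, a defining gene of club cells, was under 10 reads.

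The 10 olfactory sensory neuron genes, led by Omp (3233 CPM) and Gnal (1764 CPM), ran the other way. Their sum ran from 8281 CPM in WT 3 to 9220 CPM in homo 3, with het 3 at 8951 CPM and homo 1 at 8878 CPM. It also went with genotype, at 8281 to 8388 CPM in WT, 8399 to 8951 CPM in het and 8551 to 9220 CPM in homo mice. Every het and homo library thus lay above every WT library. None was called in any pair. In homo against WT mice 3 of the 10 were higher at an unadjusted p-value under 0.05 (4.55% of all genes). The sum was highest in het 3, homo 1 and homo 3. In none of the 10 were these the 3 lowest libraries, and 1 of them was higher in het 2 than in het 3. The part of the balance between respiratory and olfactory tissue in the levels of the motile cilia genes was not tested.

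**Figure D5:**
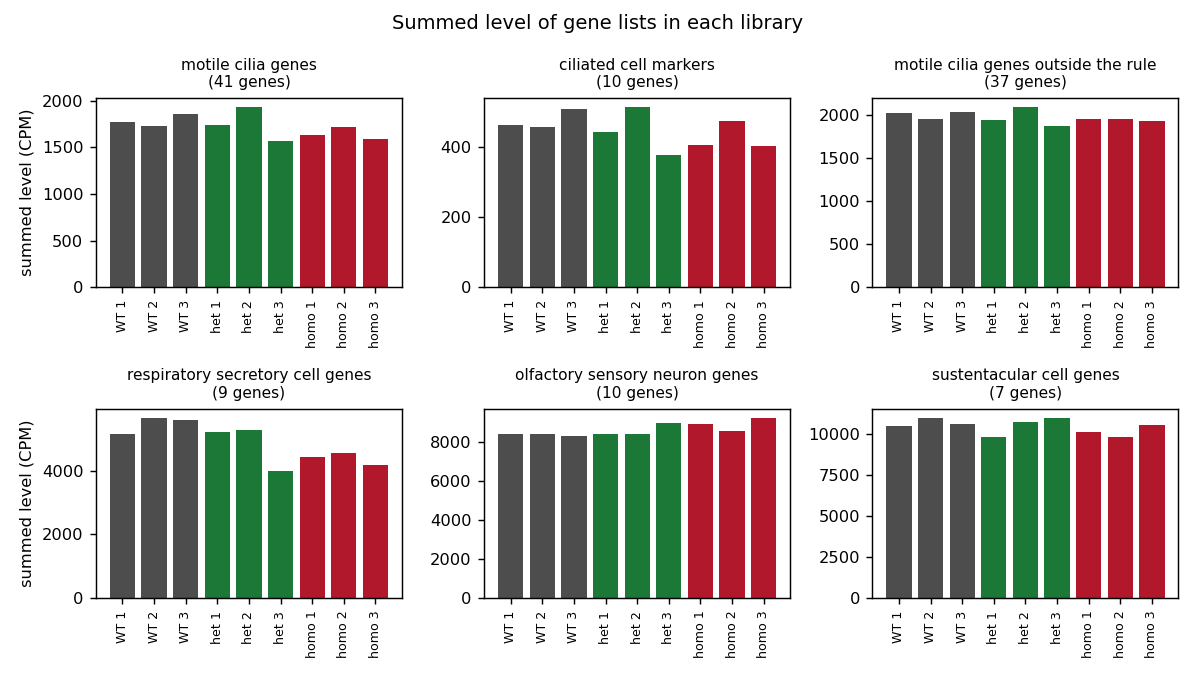
Summed CPM (linear axis from 0) of 6 gene lists in each of the 9 libraries, coloured by genotype. The 41 motile cilia genes and the ciliated cell markers are highest in het 2 and lowest in het 3; the respiratory secretory cell genes are low in het 3 and the homo mice, from 3981 to 4562 CPM; the olfactory sensory neuron genes are highest in homo 3 at 9220 CPM.

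The 7 sustentacular cell genes, led by Cyp2a5 (3138 CPM) and Sec14l3 (2585 CPM), summed to between 9837 and 11022 CPM, and the 8 proliferation genes, led by Mki67 (196 CPM) and Top2a (149 CPM), to between 424 and 499 CPM. Among them Ugt2a1, an odorant-metabolizing enzyme named after its value was seen, was the only one called. Its value was -0.29 on the log2 scale in homo over het mice (SE 0.049, edgeR adjusted p = 0.0383; 0.114% of all genes called). In homo against WT mice it was not called, although every homo mouse (525 to 560 CPM) lay below every WT mouse (613 to 692 CPM). In none of the sustentacular cell and proliferation genes were het 3, homo 1 and homo 3 the 3 lowest libraries. The 3 tested vomeronasal neuron genes, led by Gnao1 (396 CPM) and Gnai2 (141 CPM), summed to between 512 and 588 CPM. Gnao1 ran from 374 to 432 CPM and Gnai2 from 133 to 148 CPM, so both were also high in libraries with few receptor reads. The third, Calr4, had 8.44 CPM in het 1, 14.2 CPM in homo 2 and 8.59 CPM in homo 3. These are the libraries with the most vomeronasal receptor reads, and the other libraries had 2.28 to 3.91 CPM. Trpc2, a defining gene of vomeronasal neurons, was under 10 reads, although vomeronasal receptor reads reached 113 CPM in homo 2. Whether Trpc2 shares exon bases with other genes was not examined, so its count does not show these neurons to be absent. Of the male germ cell genes, whose products include many sperm tail proteins, Prm2, Tnp1, Odf1, Akap4 and Smcp were under 10 reads. The 5 tested summed to 26.1 to 30.3 CPM, nearly all of it Gapdhs (27.5 CPM), followed by Ldhc (0.489 CPM).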

How the data were processed

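The authors prepared strand-specific, polyA-selected libraries, aligned reads to mm10 with HISAT2 2.1.0 and deposited raw counts per gene for each mouse. Their methods name featureCounts, whereas the processing notes name HTSeq 0.6.1p1. The gene annotation and strand setting are not given in the sources used here. A second table of normalized values was not used.

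Genes with at least 10 reads summed over 9 libraries were fitted in edgeR 4.0.16 (R 4.3.3) by the quasi-likelihood method, with TMM normalization and genotype as the only term. P-values were adjusted by Benjamini-Hochberg over all genes, with a threshold of 0.05. Each SE was derived as the absolute log2 fold change divided by the square root of the F statistic of the test. Libraries of 1 genotype differed beyond sampling noise (chi-square divided by degrees of freedom from 4.47 to 15.8). CPM used TMM library sizes, and exon lengths came from GENCODE M21. The rows not found under the symbols used (such as Dnah3 and Dnah12) were not analysed here. DESeq2 1.42.0 and the other settings in the closing part were alternatives. The steps were tested on simulated data.

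Levels by library were printed for Foxj1, the 2 genes of highest level per kilobase in each role and near-identical copies. Of the other ciliated cell markers they were printed only for Sntn and Cdhr3, both lowest in het 3, homo 1 and homo 3. Fold changes were printed for Foxj1, the 3 genes of smallest p-value per pair and the extremes. From each other list the 2 of highest mean CPM were named. Other named values, and the levels of Dnah9, were chosen after they were seen. The members, lists and alternatives were all chosen with earlier results of these data known.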

Additional observations from a re-analysis of the deposited data

How the results depend on the processing

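No motile cilia gene was called with DESeq2 size factors, DESeq2 with or without independent filtering, no read minimum (22058 genes), filterByExpr (17847 genes), a 1.5-fold threshold or the replicate block. With only the 6 libraries of a pair, 2 were called in homo against WT mice (Dnah6 and Dnah9) and 0 in the other pairs. Counts over all genes, given for homo vs WT, het vs WT and homo vs het, moved more, from 10, 1 and 23 in the main fit to 63, 3 and 130 with DESeq2, 54, 3 and 126 with DESeq2 without independent filtering, 6, 0 and 5 with a 1.5-fold threshold, and 47, 0 and 11 with only the 6 libraries of the pair. For any difference the count went from 13 to 123 with DESeq2 and 104 without independent filtering. With no read minimum it was 33, and 50 genes were called between homo and het mice. Without the 3 libraries with vomeronasal reads, 6 genes were called between homo and het mice. The same exclusion, which leaves 1 homo mouse whose spread is taken from the other groups, turned the log2 fold change of Tekt5 to -0.028 in homo over WT and -0.61 in homo over het mice, and that of Foxj1 in het over WT mice to -0.0093. The cause of these shifts was not tested.

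Leaving out 1 library at a time gave 8 to 33 called genes in homo vs WT, 0 to 1 in het vs WT, 7 to 190 in homo vs het and 7 to 70 for any difference. Of the 41 genes, 0 to 1, 0, 0 to 3 and 0 to 3 were called. The highest counts were those without het 3. Foxj1 in het over WT mice ran from -0.026 to 0.12 and was below 0 without het 1 (-0.0096) and without het 2 (-0.026). The summed level differed by -9.72 to -5.88% in homo vs WT, by -7.41 to 2.79% in het vs WT and by -10.3 to -0.456% in homo vs het, and when weighted per kilobase by -2.99% in homo vs WT and -0.198% in homo vs het. In homo over het mice Dnah5 ran from -0.93 without het 3 to -0.34 without het 2, and Dnah6 from -0.77 to -0.29.

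Ratios of the highest to the lowest library were recomputed, as an alternative chosen after seeing the data. Without het 2 that of Dnah5 was 2.15, Dnah6 1.91, Dnah10 1.75 and Dnah7a 1.29, and without het 3 that of Dnah10 was 1.66. Same-numbered mice were compared over genes by the deviation of log CPM from the mean of their genotype. These deviations correlated from -0.158 to 0.0556 in the pairs with WT mice. Between het and homo mice they correlated at -0.043, 0.25 and 0.30 for numbers 1 to 3. Mice of different numbers reached like values, such as 0.17 for het 2 with WT 3 and -0.31 for homo 2 with het 3. Not every same-numbered pair was above 0.1, and no label ties the numbers to animals or batches, so the numbers were not taken to pair the mice. With the replicate block, 0 genes were called in het vs WT, 41 in homo vs het and 20 for any difference. The difference of the summed levels (-7.83, -2.21 and -5.75%) is the same with and without the block by construction. Spag6l, Tekt5 and Rsph6a, with 76 to 218 reads over 9 libraries, are limited by depth.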
